A study of Homo sapiens with 6 samples.

Results

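The albumin gene family of the serum carrier proteins comprises ALB, AFP, AFM and GC on chromosome 4, and these 4 genes of 20033 annotated protein-coding genes were chosen by name as members of the family, with earlier results of these data known. Chromatin binding by the TTD, the tandem Tudor domain of the human protein UHRF1, was followed over each gene, around its transcription start site (TSS) and between the genes, in a list of 31569 TTD peaks. The peaks come from CIDOP, a ChIP-like method that pulls down MNase-released mononucleosomes with a GST-tagged reading domain (here UHRF1 residues 126 to 280) instead of an antibody. All chromatin was from untreated HepG2 cells, 1 established human liver cell line derived from a hepatoblastoma, and biological duplicates of input, H3K9me2 ChIP and TTD CIDOP made up the 6 libraries. The authors called the peaks on the mean signal of both TTD replicates, so the list holds positions and widths on hg38 but no score, no read depth and no replicate error. Differences between genes are therefore given as descriptions without a test, beside the same measure over all protein-coding genes. A list of positions holds no expression values, so the identity of the line could not be checked against marker genes, and the number of copies of the region in these cells was not measured.

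Albumin, the main protein of plasma, carries fatty acids, hormones and drugs. Alpha-fetoprotein (AFP) is its fetal counterpart and a serum marker of liver tumours, afamin (AFM) binds vitamin E, and GC encodes the vitamin D-binding protein. All are secreted by hepatocytes or their precursors, and the genes arose by duplication of a common ancestor. The TTD of UHRF1 is a histone reader that recognises the tail of histone H3 methylated at K9, and UHRF1 is best known for its part in keeping DNA methylation after replication.

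ALB, AFP and AFM lay side by side on the plus strand of chromosome 4, and each had its TSS inside a TTD peak, whereas GC, on the minus strand, had no peak near its TSS. In GENCODE release 44 the ALB record (ENSG00000163631.18) spanned chr4:73397114-73421482, AFP (ENSG00000081051.8) chr4:73431138-73456174, AFM (ENSG00000079557.5) chr4:73481745-73504001 and GC (ENSG00000145321.13) chr4:71741696-71804041, all on hg38. GC was separated from ALB by 1593072 bp. The canonical transcripts of the 4 genes started at positions 73404287, 73436221, 73481745 and 71784079, in the same order, and these starts are the TSSs used throughout. The ALB, AFP and GC records began 7173, 5083 and 19962 bp further upstream. For ALB this outer edge belongs to a transcript annotated as incomplete at its 5' end, so it is not a known start.

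The 250 bases before the TSS are shown for the 3 genes whose TSS lay in a peak, because these sequences were covered by TTD peaks over their whole length. They were taken from the RefSeq promoter table on GRCh38.p14, which matched 3 of the 4 genes by symbol (not GC). The stretches were chr4:73404037-73404286 for ALB, chr4:73435971-73436220 for AFP and chr4:73481495-73481744 for AFM, all on the plus strand, and the TSS follows the last base. Capitals mark the letters GTTAAT, a half-site of the liver factor HNF1, and TATAAA, the TATA box.
ALB promoter: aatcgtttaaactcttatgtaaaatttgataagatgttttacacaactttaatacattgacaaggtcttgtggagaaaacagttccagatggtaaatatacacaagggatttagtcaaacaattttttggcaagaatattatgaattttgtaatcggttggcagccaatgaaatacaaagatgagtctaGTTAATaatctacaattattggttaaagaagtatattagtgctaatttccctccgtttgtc
AFP promoter: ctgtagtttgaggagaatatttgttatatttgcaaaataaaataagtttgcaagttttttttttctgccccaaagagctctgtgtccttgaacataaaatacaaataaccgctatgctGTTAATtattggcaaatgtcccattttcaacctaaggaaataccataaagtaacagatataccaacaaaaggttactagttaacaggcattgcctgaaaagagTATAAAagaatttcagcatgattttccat
AFM promoter: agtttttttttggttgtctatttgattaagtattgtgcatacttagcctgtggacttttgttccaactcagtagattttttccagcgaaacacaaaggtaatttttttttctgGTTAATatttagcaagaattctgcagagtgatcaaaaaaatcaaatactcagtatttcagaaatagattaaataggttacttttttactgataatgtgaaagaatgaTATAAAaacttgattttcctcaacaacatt

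The promoters were poor in G and C, at 30% for ALB, 31.6% for AFP and 28% for AFM, and they held 3, 1 and 1 CpG dinucleotides. The letters GTTAAT occurred once in each, starting 61 bases before the ALB TSS, 132 before the AFP TSS and 137 before the AFM TSS. Searched on both strands, GTTAAT was present in 6.23% of 35116 RefSeq promoter windows of the same length. The shares of promoters given here were not matched for G+C content, which had a median of 61.3% in the 1 kb around all TSSs. They are therefore no like background for windows this poor in G and C. TATAAA started 29 bases before the AFP TSS and 30 bases before the AFM TSS and was not in the ALB window as these letters (10.7% of promoters). TTGCNNAA, a form of the C/EBP site, was found once in each of the 3 windows (9.05% of promoters), 125 bases before the ALB TSS, 221 before the AFP TSS and 130 before the AFM TSS. CCAAT was found 2 times in the ALB window, 1 time in the AFP window and 0 times in the AFM window (32.0% of promoters), and TGTTTNC, a form of the FOXA site, only in the ALB window among the 3 (15.5% of promoters). None of the matches overlapped another. These matches describe the letters of the covered sequence, and binding of the factors was not measured.

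In the 5 kb window centred on the TSS (2.5 kb on each side), peaks covered 92.5% for ALB (4624 bp), 75.0% for AFP (3750 bp), 96.7% for AFM (4835 bp) and 0% for GC. Thus 3 of the 4 members had a peak in this window, against 16.9% of all protein-coding genes (95% Wilson interval 16.4% to 17.5%, for counting error only), and the mean cover over all genes was 5.19%. A TSS window covered at least as much as that of AFM was found in 0.314% of genes, as that of ALB in 0.354% and as that of AFP in 0.844%. The central 500 bp around the TSS lay completely in a peak for ALB, AFP and AFM and not at all for GC. The TSS itself lay inside a peak in 2.19% of all genes.

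**Figure D1:**
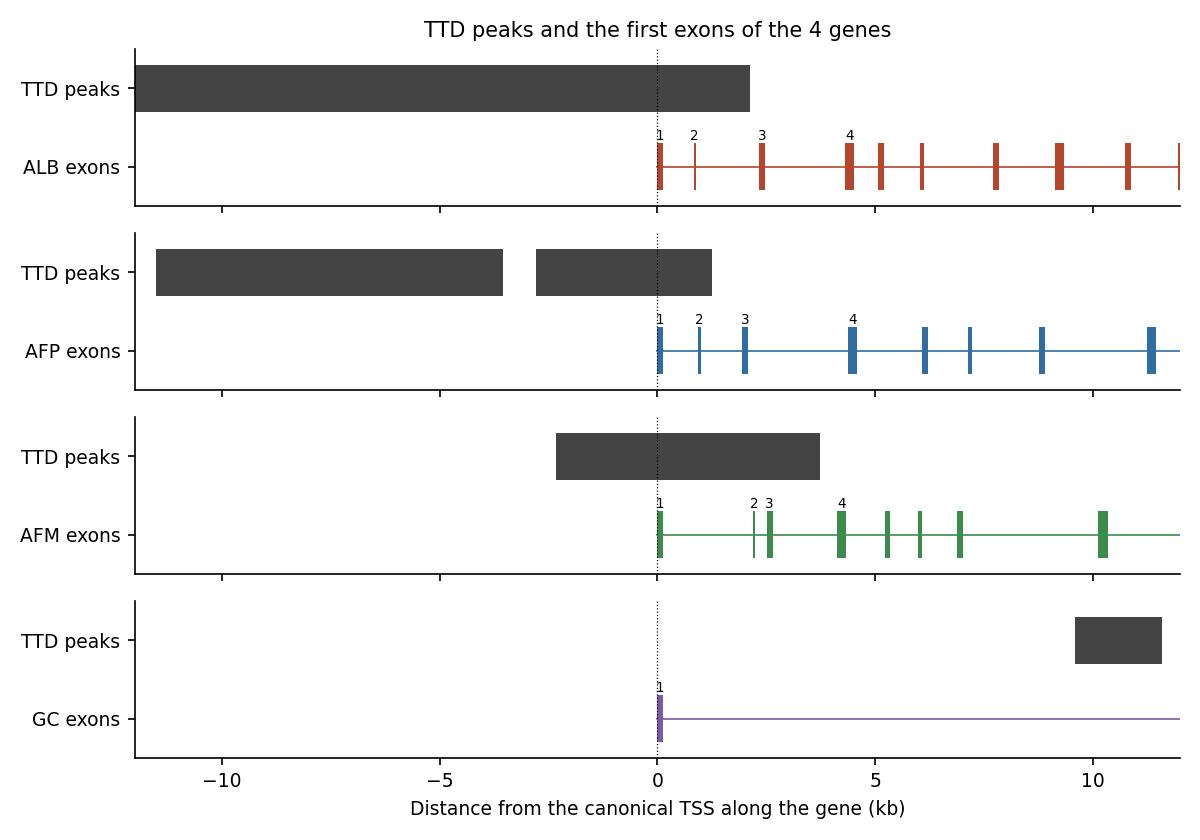
TTD peaks (grey bars) and exons of the canonical transcript (coloured boxes, exons 1 to 4 numbered) of ALB, AFP, AFM and GC, with 1 panel per gene; the horizontal axis is the distance from the TSS in kb, in the direction of transcription. A peak covers the TSS of ALB, AFP and AFM, while the only peak near GC begins 9589 bp downstream of its TSS.

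The peaks differed in how far they reached to each side of the TSS. The ALB peak extended 20406 bp upstream and 2123 bp downstream, the AFP peak 2800 bp upstream and 1249 bp downstream, and the AFM peak 2334 bp upstream and 3725 bp downstream. ALB and AFP were thus covered mainly upstream and AFM mainly downstream. Among the 438 genes with a TSS inside a peak, the median reach was 1628.5 bp upstream and 1308 bp downstream, and the upstream side was the longer in 56.8%. An upstream reach as long as that of ALB was found in 1.37% of these peaks, as that of AFP in 29.0% and as that of AFM in 35.6%. Downstream, a reach as long as that of AFM was found in 16.9% of them, as that of ALB in 34.0% and as that of AFP in 52.1%.

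The peak over the ALB TSS was 22530 bp wide (chr4:73383881-73406410) and ranked 52 of 31569 by width, where the median peak was 2250 bp wide. Ranks by width hold for the deposited list, from which the authors had discarded some wide peaks by hand. A gap of 930 bp separated it from a further upstream peak of 10430 bp (chr4:73372521-73382950). Peaks less than 1 kb apart were also joined. Joined, the ALB domain measured 33890 bp, of which 97.3% lay in deposited peaks, and ranked 31 of 29479. The AFP TSS lay in a peak of 4050 bp (chr4:73433421-73437470, rank 6534), and a second peak of 7960 bp (chr4:73424711-73432670, rank 1383) ended 750 bp before it and covered the outermost AFP start. Joined, these AFP peaks formed a domain of 12760 bp (rank 592). The AFM peak was 6060 bp wide (chr4:73479411-73485470, rank 2797) and had no neighbour within 1 kb. Peak width over the TSS therefore fell in the order ALB, AFM, AFP as deposited, and ALB, AFP, AFM after joining.

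**Figure D2:**
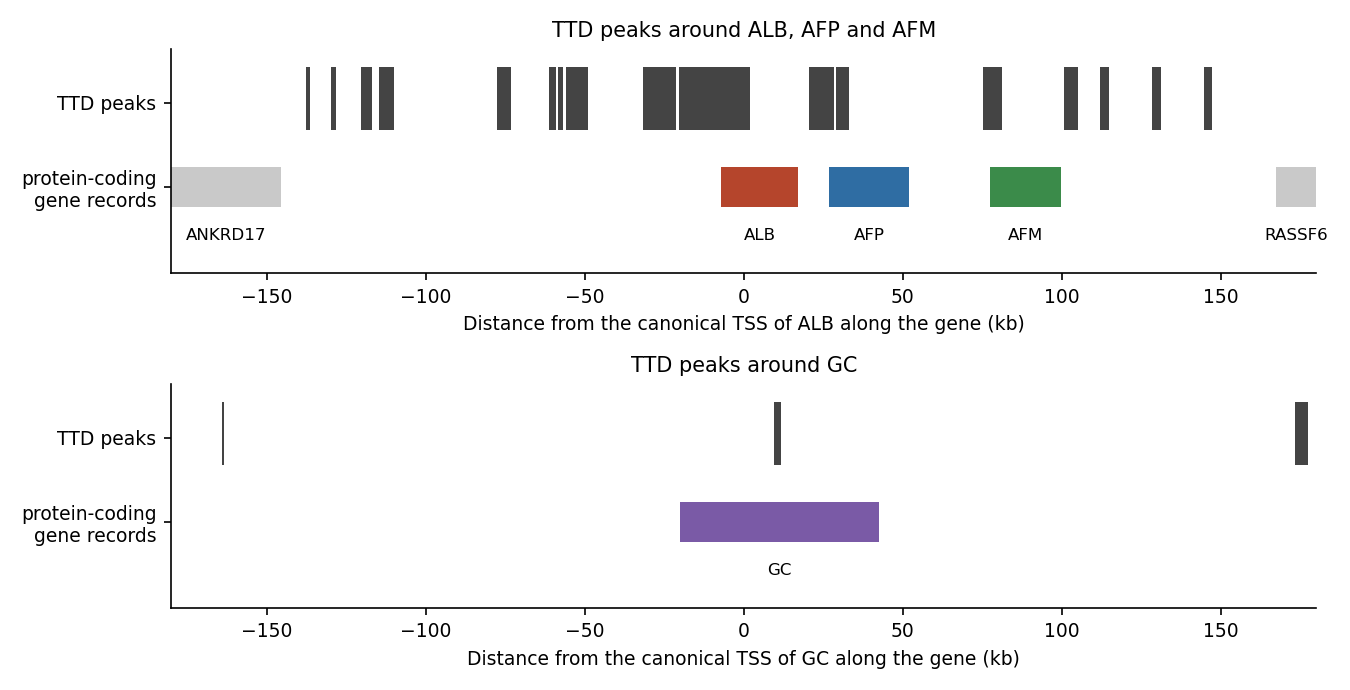
Maps of the ALB, AFP and AFM locus (upper panel) and of the GC locus (lower panel) drawn to the same scale; the horizontal axis is the distance in kb from the TSS of ALB or of GC along the gene, with TTD peaks as dark blocks and protein-coding gene records as coloured or light grey bars. The upper panel holds 1 peak or more at the start of each of ALB, AFP and AFM, and 1 peak lies within GC.

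The short gap before AFP is shown as the 300 bases at its centre (chr4:73432896-73433195, plus strand, GRCh38.p14), because it is the only break in the AFP domain. Capitals mark TTGCNNAA and TGTTTNC.
AFP gap: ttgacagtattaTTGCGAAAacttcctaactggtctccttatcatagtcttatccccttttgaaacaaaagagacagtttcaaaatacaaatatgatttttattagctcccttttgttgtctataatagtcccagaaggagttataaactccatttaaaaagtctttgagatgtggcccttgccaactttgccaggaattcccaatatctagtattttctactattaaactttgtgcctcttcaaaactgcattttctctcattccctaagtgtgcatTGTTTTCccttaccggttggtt

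The gap sequence held 35.3% G and C and 2 CpG dinucleotides. TTGCNNAA and TGTTTNC each occurred once in it, and these letters were present in 18.0% and 28.2% of the 2090 gaps shorter than 1 kb between neighbouring TTD peaks, read over the same central length. TATAAA and CCAAT also occurred once each (26.0% and 34.5% of such gaps), and GTTAAT did not occur (15.4%). Of all gaps between neighbouring peaks, 6.63% were shorter than 1 kb. The gap was chosen for display after its position had been seen, and the TTD signal within it was not analysed here.

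Over the gene records, peaks covered 38.2% of ALB (9297 bp in 1 peak), 22.3% of AFP (5583 bp in 2 peaks), 16.7% of AFM (3726 bp in 1 peak) and 3.21% of GC (2000 bp in 1 peak). All 4 members thus held a peak, as did 34.2% of all protein-coding genes. GC, however, held 0 when only peaks of at least 2250 bp were counted. When at least 50% of a peak had to lie inside, ALB held 0 in the gene and in the TSS window. For the TSS window this outcome was fixed, because 50% of the ALB peak of 22530 bp cannot fit in it. Over all genes, the mean cover was 3.39% and the median 0%. Cover as high was found in 1.45% of genes for ALB, 3.65% for AFP, 5.58% for AFM and 22.7% for GC. Much of the ALB and AFP values came from sequence before the canonical TSS, because the gene records begin further upstream. Over the canonical transcripts alone, cover was 12.4% for ALB, 6.26% for AFP, 16.7% for AFM and 4.72% for GC, so that AFM then ranked first.

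Within the canonical transcripts of ALB, AFP and AFM the peaks lay at the 5' end and stopped in an early intron. The ALB peak covered exons 1 and 2 of 15 and 85.0% of intron 2, and the other 13 exons were free of peaks. The AFP peak likewise covered 2 of 15 exons and 26.9% of intron 2. The AFM peak reached somewhat further, over 3 of 15 exons and 73.4% of intron 3. In GC, the peak of 2000 bp (chr4:71772491-71774490) lay in intron 1, 9589 bp from the TSS, where it took up 13.7% of the 14560 bp intron, and none of the 13 exons was covered. Counted by length, peaks covered 7.79% of the exons of ALB, 7.38% of those of AFP, 15.1% of those of AFM and 0% of those of GC.

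Each canonical transcript was also divided into 10 bins of equal length from the TSS to its end. ALB was covered at 100% in bin 1 and 23.5% in bin 2, and at 0% in all later bins. AFM gave 100% and 67.4% in the same bins, and AFP 62.7% in bin 1, with 0% in all others for both genes. GC was covered in bin 3 only, at 47.2%. Over the 14122 protein-coding genes with transcripts of at least 10 kb, mean cover was 4.80% in bin 1 and 2.69% in bin 10. At the 3' end, the window of 2.5 kb on each side of the gene end held a peak for AFM (28.4% cover) and none for ALB, AFP and GC, against 8.66% of all genes with a peak there. The AFM value came from a peak of 4210 bp that began after the gene end (chr4:73505081-73509290).

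Read in 1 kb bins out to 25 kb on each side of the TSS, cover of the whole 50 kb was 61.5% for ALB, 24.0% for AFP, 15.4% for AFM and 4% for GC, beside a mean of 4.16% and a median of 0% over all genes. GC was thus close to the mean of all genes, and 29.7% of genes were covered as much. Of 50 bins, 33 held a peak around ALB, 14 around AFP, 9 around AFM and 3 around GC, and 29, 10, 6 and 1 of them were covered whole. Upstream of the TSS, 96.3% of the 25 kb was in peaks for ALB, 43.0% for AFP, 9.34% for AFM and 0% for GC. Downstream, the values were 26.8%, 5%, 21.6% and 8%. The mean over all genes was lowest in the first 1 kb after the TSS, at 2.52%, and highest between 2 and 1 kb before it, at 7.21%. ALB, AFP and AFM had full cover on both sides of the TSS where the mean of all genes dipped.

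**Figure D3:**
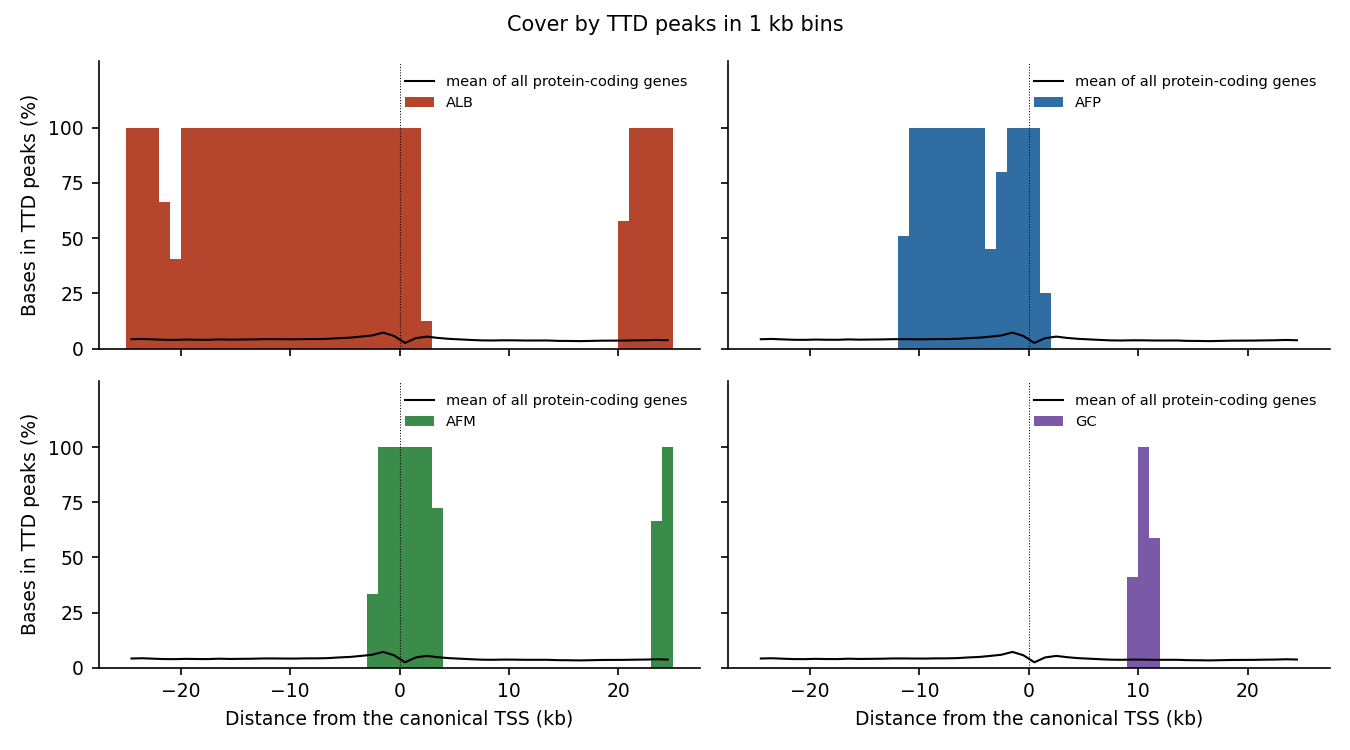
Percent of each 1 kb bin that lies in TTD peaks, from 25 kb before to 25 kb after the TSS, for ALB, AFP, AFM and GC (bars, 1 panel per gene), with the mean over all 20033 protein-coding genes as a black line. Cover is nearly complete upstream of ALB (96.3%), while GC shows 0% upstream and a single peak downstream.

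The mean absolute difference between 2 members' bins was 37.5 percentage points for ALB and AFP, 25.1 for AFP and AFM and 52.5 for ALB and AFM. GC differed from AFM by 19.4, from AFP by 28.0 and from ALB by 65.5 percentage points. A gene without any peak would differ from them by 15.4, 24.0 and 61.5. No bin with cover in GC had cover in another member. The differences from GC thus follow the amount of cover in the other gene and do not rank likeness of pattern. The profiles of ALB and AFP are not independent, since their windows overlap and share peaks. Within 100 kb on each side of the TSS, where the windows of ALB, AFP and AFM overlap and share peaks, 9, 11, 9 and 1 peaks were found for ALB, AFP, AFM and GC, and cover was 32.9%, 35.8%, 27.0% and 1.00%, beside a mean of 3.91% over all genes. At this distance AFP and not ALB had the largest value.

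Between the genes, the stretch from the ALB end to the AFP start (9655 bp) was covered at 66.6% by 1 peak, and measured between the canonical transcripts (14738 bp) at 73.0% by 2 peaks. The stretch from AFP to AFM (25570 bp) was covered at only 9.13%, all of it the upstream side of the AFM peak. Before ALB, 10 peaks, among them the upstream part of the peak over the ALB TSS, covered 35.8% of the 138315 bp that reach to ANKRD17. After AFM, 4 peaks covered 18.2% of the 67548 bp that reach to RASSF6. The block from ALB to AFM (106888 bp) held 4 peaks and was covered at 25.6%, and of 1779 adjoining windows of this length on chromosome 4, 20 (1.12%) were covered as much, with a median of 0%. GC, by contrast, had 1 peak in the 169608 bp on its side towards SLC4A4 (2.37% cover) and 1 in the 227860 bp towards NPFFR2 (0.215%). Its intron peak lay 161870 and 173070 bp from the neighbouring peaks. Gaps as long made up 12.6% and 11.8% of all gaps, and 18.6% and 17.3% of those on chromosome 4.

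The protein-coding genes around the family were counted in the same way. Within 1 Mb of the block from ALB to AFM lay 18 other protein-coding genes, of which COX18 alone had a peak in its TSS window, at 12.1% cover, where 16.9% of all genes had a peak there. Peaks in the gene body were found in 4 of the 18, at 27.0% cover in RASSF6, 3.79% in COX18, 0.720% in MTHFD2L and 0.340% in ADAMTS3, where 34.2% of all genes held one. These are too few genes to read a difference from the shares over all genes. The nearest gene before ALB, ANKRD17, held none. Around GC, 0 of 7 genes within 1 Mb had a peak in the TSS window, and 4 had one in the gene body (RUFY3 at 2.51%, SLC4A4 at 2.02%, MOB1B at 1.64% and ADAMTS3). The non-coding genes ANKRD17-DT and LINC02499, which flank the block, were covered at 18.9% and 19.1%.

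The family TSSs lay in sequence with few CpG dinucleotides. In the 1 kb around the TSS, the ratio of observed to expected CpG was 0.394 for ALB, 0.0491 for AFP, 0.180 for AFM and 0.102 for GC, beside a median of 0.725 over all TSSs. All 4 thus fell into the quartile with the lowest ratios (0.408 or less), and G+C content was 31.9%, 28.6%, 29.9% and 34.6%, beside a median of 61.3%. Within this quartile, 14.1% of TSS windows held a peak and 5.99% of TSSs lay inside one, compared with 3 of the 4 members for both measures. Cover as high as in ALB, AFP and AFM was found in 1.24%, 2.66% and 1.14% of the quartile. GC had no peak in its TSS window, like most TSSs of the quartile. A link between the CpG ratio and the peaks was not tested.

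The G+C content was 35.3% in the ALB peak, 32.6% in the AFP peak over the TSS, 36.7% in the AFM peak and 34.7% in the GC intron peak, beside a median of 43.2% over all 31569 peaks. Values as low were found in 4.54%, 0.852%, 8.53% and 3.26% of peaks. The second AFP peak, further upstream, was at 38.0%, and values as low were found in 14.0% of peaks. Chromosome 4 as a whole was at 38.2%. Within the block from ALB to AFM, the sequence in peaks (35.7%) and outside them (36.1%) had nearly the same G+C content, and the CpG ratios were 0.191 and 0.182.

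**Figure D4:**
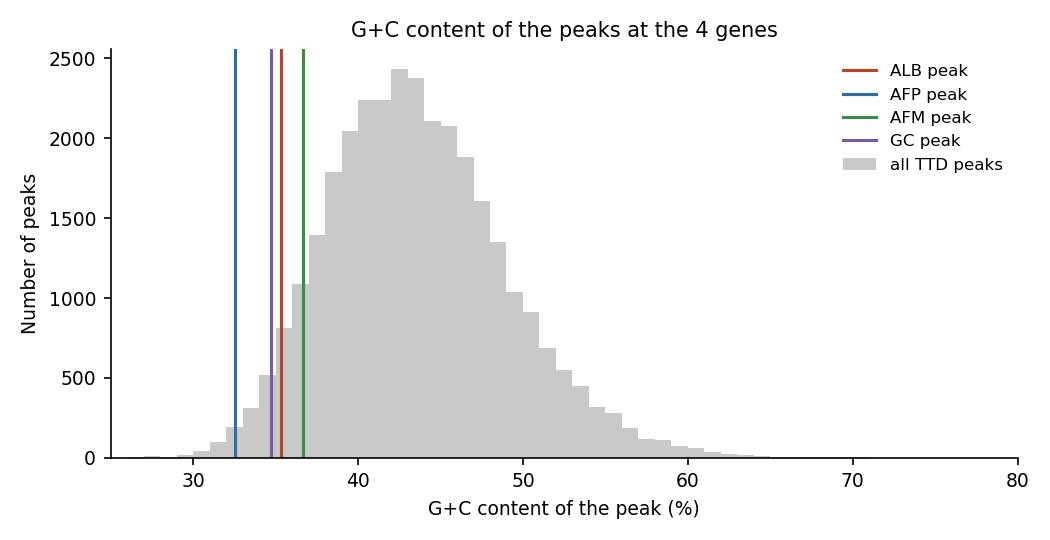
Number of TTD peaks by G+C content, in percent, for all 31569 peaks, with the peaks over the TSSs of ALB, AFP and AFM and the GC intron peak as vertical lines. The marked peaks, without the second AFP peak, lie between 32.6% and 36.7%, below the median of 43.2%.

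For context, 30 genes of other liver plasma proteins were read in the same way. Of these, 22 (73.3%) had a peak in the TSS window, with a median cover of 37.3%, against 16.9% of all genes and a median of 0%. The 95% Wilson interval of the share, 55.6% to 85.8%, is for counting error only. It treats neighbours such as the fibrinogen genes as independent, which they are not. HP, which encodes the haemoglobin-binding haptoglobin, was the only gene of the list covered at least as much as ALB, at 100%, and 7 reached the value of AFP. The fibrinogen genes, also on chromosome 4, were covered at 74.4% (FGA), 90.8% (FGB) and 44.2% (FGG) in the TSS window, and FGB had its TSS inside a peak. GC, with 0%, was like 8 genes of the list that had no peak in this window. The list was chosen with earlier results of these data known, so its share is no independent support for the values of the family.

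**Figure D5:**
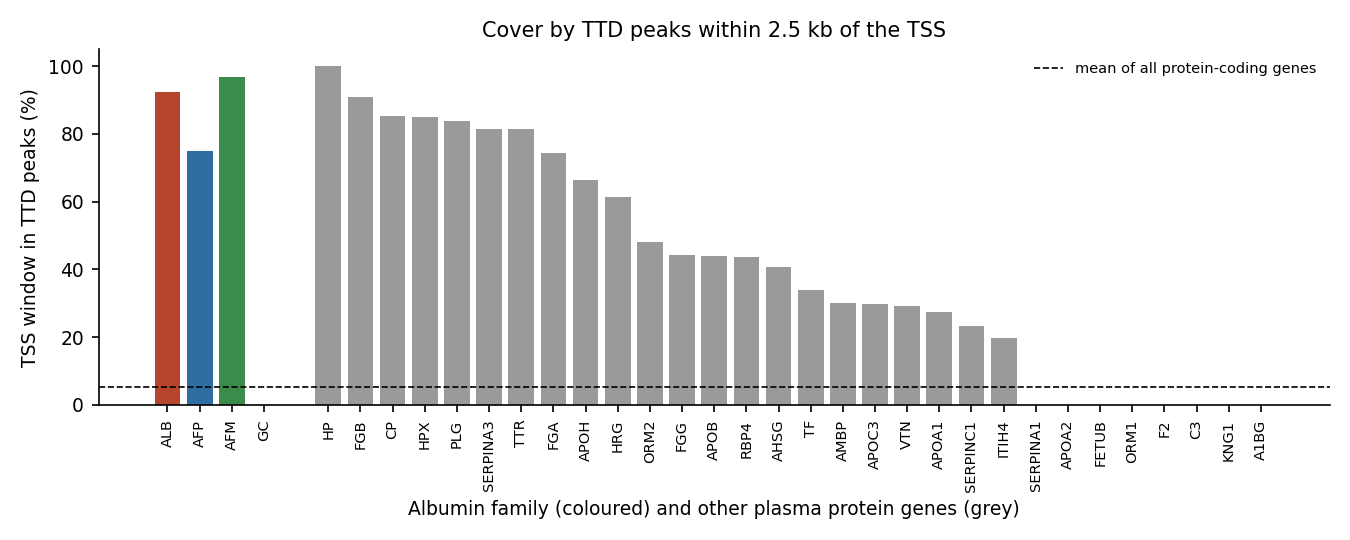
Percent of the TSS window of 2.5 kb on each side that lies in TTD peaks, for ALB, AFP, AFM and GC (coloured bars) and the 30 plasma protein genes (grey bars); the dashed line is the mean over all protein-coding genes, 5.19%. ALB (92.5%) and AFM (96.7%) lie above all genes of the list but HP, AFP lies at 75.0% and GC at 0%.

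The other annotated transcript starts were read in the same way. Of 19 annotated ALB transcripts, 11 began inside a peak. Of these, 10 began between -32 and 21 bp from the canonical TSS, so they mark 1 start region, and the other was the transcript with the incomplete 5' end. Peaks also held 4 of 7 AFP starts, 1 of 2 AFM starts and 0 of 8 GC starts. The AFP starts at -5083 and -5062 bp from the canonical TSS lay in the upstream peak. Those at 0 and 26 bp lay in the peak over the TSS. The outer edges of the ALB, AFP and AFM records gave windows covered at 100%, 85.0% and 96.7%, and that of GC 0%.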

How the data were processed

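The authors deposited 1 list of TTD peaks, whose values are chromosome positions and widths in bp on hg38. Per the labels, the 6 libraries comprised 2 of input, 2 of H3K9me2 ChIP and 2 of TTD CIDOP. The submitters' processing notes name Trimmomatic 0.38, FastQC 0.72, HISAT2 2.2.1, deepTools 3.3.2 and MACS2 2.1.1. According to the study's methods, coverage was computed as RPKM in 10 bp bins, both TTD replicates were averaged, and broad peaks were called. That the calls were made on the mean is read from the name of the deposited list. The calls were then cleaned, by a blacklist and by hand inspection that also took away wide peaks judged false. Such cleaning can open gaps or drop wide peaks, which limits the ranks by width, and pooling leaves no replicate error. The study states only a minimum number of reads, and the list does not give the depths of the libraries. Signal tracks were not analysed here.

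Cover is the percent of an interval in peaks, with genes and canonical transcripts of GENCODE release 44. The named genes are the 4 members, the nearest genes and those within 1 Mb that hold a peak, the fibrinogen genes and the genes of the plasma protein list covered at least as much as ALB, and the 3 genes more than 1 Mb away with the most similar profile to ALB and to AFP. The UGT2 genes and non-coding genes named fall outside this rule and were chosen after their values were seen. The members and lists were chosen with earlier results of these data known. The cover procedure was tested on simulated data and equalled a base-by-base count for 1000 of 1000 intervals. Alternatives were another TSS, other windows, canonical spans, joined peaks, peaks of at least 2250 bp and a stricter overlap. The share of repeats was planned and not analysed here, because the genome sequence used carries no repeat masking. Python 3.11.15, numpy 2.4.6, scipy 1.17.1 and matplotlib 3.10.9 were used.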

Additional observations from a re-analysis of the deposited data

How the results depend on the processing

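Values under the alternatives are descriptions of a fixed list without a test. TSS cover was 100% for ALB, AFP and AFM within 1 kb on each side and 71.2%, 55.0% and 60.6% within 5 kb on each side, and 100% for ALB from the outer edge of its record, where the transcript is incomplete, and 85.0% for AFP from its own. Gene cover over the canonical transcript was 12.4% for ALB and 6.26% for AFP. With only peaks of at least 2250 bp, GC held 0 peaks and 0% cover. Joining peaks left AFP with 1 peak. When at least 50% of a peak had to lie inside, ALB held 0 peaks in its gene and 0 in its TSS window, and AFP 1 in its gene. The 0 in the ALB TSS window was fixed, because the ALB peak of 22530 bp is too wide to meet the rule there. The share of all TSS windows with a peak was 7.31% with the wider peaks, 10.8% within 1 kb and 22.0% within 5 kb. No paired analysis was possible because the peak list used here pools both TTD replicates, and for the same reason no replicate could be left out of it. The separate libraries were not analysed here. The depth of each library, of which the study states only a minimum, limits which weak regions were called.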

Other observations

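Genes far from the family with a similar pattern of peaks were ranked by the mean absolute difference over the 50 bins of 1 kb around the TSS. For ALB the nearest were APOB on chromosome 2, the structural protein of low-density lipoprotein, at 15.9 percentage points, AKR1C3 on chromosome 10, a steroid-reducing enzyme, at 17.3, and ENSG00000283228 on chromosome 2 at 17.8, where a gene without any peak would differ by 61.5. For AFP they were TMEM53 on chromosome 1 at 4.50, ASXL2 on chromosome 2 at 5.99 and CLDN22 on chromosome 4 at 7.64, against 24.0 for a gene without any peak.

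ALB, AFP and AFM were 1 of 10 runs of at least 3 neighbouring protein-coding genes whose TSSs all lay inside a TTD peak, and 1 of 223 such runs when a peak anywhere in the TSS window was counted. In both counts, readthrough records that join neighbouring genes were counted as genes of their own, so some runs hold fewer separate genes. The other run on chromosome 4 with TSSs inside peaks comprised UGT2B15, UGT2B10, UGT2A3 and UGT2B7, enzymes that attach glucuronic acid to steroids and drugs. These runs and gene names were chosen after their values were seen, and no test was made of their number.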
